A study of Mus musculus with 6 samples.

Results

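Histone genes were followed in mature mouse oocytes that had completed meiotic maturation in the dish or in the animal. The set held every gene with an Ensembl identifier whose symbol belongs to the H1, H2A, H2B, H3 or H4 families, with names marked as pseudogenes left out, and comprised 100 of the 60193 genes listed. Of these, 67 were replication-dependent histone genes and 33 were variants or other family names, sorted by symbol alone. The variants include the oocyte linker histone H1f8, both genes of H3.3 and both genes of H2A.Z. By the same symbol rule they also include H3f3aos, a noncoding antisense transcript of H3f3a, and H3f3c, which the annotation lists as a processed pseudogene.

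The samples were 6 pools of metaphase II (MII) oocytes from ICR mice aged 42 to 45 weeks, 3 from maturation in vitro (IVM) and 3 from maturation in vivo (IVO). For IVM, denuded germinal vesicle oocytes of PMSG-primed mice were cultured in M16 medium for 12 h, whereas IVO oocytes were taken from the oviduct 14 h after a further injection of hCG. Each pool held 20 oocytes from 3 mice. No animal was genetically altered, all mice were of advanced reproductive age, and no younger group was included. The comparison asks how histone mRNA differs between oocytes of reproductively old mice that matured in culture and those that matured in the ovary.

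Replication-dependent histone genes supply the bulk of histone protein when a cell copies its DNA, and their mRNAs normally end in a conserved stem-loop instead of a poly(A) tail. Variant histones are made outside S phase from ordinary polyadenylated mRNAs and replace the canonical proteins in chromatin. The growing oocyte stores both kinds of mRNA and then falls transcriptionally silent, so a mature oocyte carries them as a maternal supply for the first cleavages.

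The stem-loop is the sequence that separates both classes, and it is shown for the replication-dependent genes on which the results turn and for H2ax, a variant that also carries it. Each line gives 30 bases of GRCm39, the build used by the authors, 5′ to 3′ on the strand of the gene, with the 16 bases of the stem-loop in capitals. The first 5 genes were called lower in IVO oocytes, whereas H2ac1, H2ac24, H2ac18 and H2ax were not called.
H2bc4, chr13:23868625-23868654, plus strand: ccaaaGGCTCTTTTCAGAGCCacccacttt
H3c4, chr13:23760413-23760442, plus strand: ccaaaGGCTCTTTTCAGAGCCacccccgtt
H4c8, chr13:23715623-23715652, plus strand: ccaaaGGCCCTTTTCAGGGCCgcccacatt
H2bc12, chr13:22220465-22220494, plus strand: ccaaaGGCTCTTTTAAGAGCCactaaacca
H2bc13, chr13:21899879-21899908, minus strand: tcaaaGGCTCTTTTAAGAGCCacccacact
H2ac1, chr13:24118869-24118898, plus strand: aaaaaGGCTCTTTTCAGAGCCaccttcatt
H2ac24, chr13:22017190-22017219, minus strand: aaaaaGGCTCTTTTCAGAGCCatccacagt
H2ac18, chr3:96153343-96153372, plus strand: aaaaaGGCTCTTTTCAGAGCCacccactga
H2ax, chr9:44246532-44246561, plus strand: acaaaGGCCCTTTTAAGGGCCaccacctcc

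A stem-loop was searched on the strand of each gene in the 200 bases after its stop codon, as GG, any 2 bases, CTTTT, any base, AG, any 2 bases and CC, with the outer 6 bases on each side complementary. It was found in 59 of the 66 replication-dependent members with a coding model (89.4%), in 2 of 31 variant members (6.45%, H2ax and H3f4) and in 4 of 21456 other protein-coding genes (0.0186%). Of those 4, H2ac25, H2bc26 and H2bw2 are histone genes with symbols outside the set, and Nova2 is not. The distance from the stop codon was 21 to 58 bases, with a median of 31. Most copies were of 1 form, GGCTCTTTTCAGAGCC, in 37 replication-dependent members, of which 11 passed the filter for testing. The form of H4c8, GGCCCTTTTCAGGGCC, was carried by 8 replication-dependent members. H2bc4, H3c4, H2ac1, H2ac24 and H2ac18 share the common form, so its letters do not separate the genes that were called from those that were not.

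The values are the authors' FPKM, the fragments on a gene scaled to its length and to the library's total. Summed over all genes, FPKM came to 2096822, 2111776 and 1826738 for the IVM pools. For the IVO pools it came to 1560924, 1560813 and 1643682, below every IVM pool. Sums of FPKM given below were not rescaled to a common total. The kit primes cDNA from poly(A) tails, so a histone mRNA that ends at its stem-loop is captured only in part, and a change in level cannot be told apart from a change in tail. The libraries do not mark the strand, so reads from genes that overlap on opposite strands cannot be told apart either. In such pools, fewer cells of a type and less RNA per cell also cannot be told apart. Low FPKM values fall on steps of single fragments, which placed the depth at 16460000 to 19260000 fragments in IVM and 17820000 to 18160000 in IVO samples, with 71.3% to 75.4% of low values within 0.15 of a whole fragment. The inferred mean fragment length was 196 to 217 bases in IVM and 248 to 264 bases in IVO samples, and the groups did not overlap. All 10 oocyte markers were tested and 4 of them (40%: Zp1, Zp2, Zp3 and Nlrp5) were called lower in IVO, beside 17.9% of all tested genes. The 15 cumulus and granulosa markers summed to 67.7 to 69.3 FPKM in IVM and 50.1 to 59 FPKM in IVO. Nr5a2, the 1 marker of the 15 called lower (39.19, 34.40 and 28.32 FPKM in IVM; 13.50, 16.51 and 17.81 FPKM in IVO), carried that difference. Without it the other 14 summed to 28.5 to 40.9 FPKM in IVM and 36.6 to 41.2 FPKM in IVO. Has2, Ptx3 and Tnfaip6 were higher in all IVO than in all IVM samples, at 0.49 FPKM or less, with Amh listed at 0 in all samples and Foxl2 at 0 in all but 1 IVM sample. Other markers of the list had signal in every sample, with overlapping groups. Over the 6 samples Cyp19a1 had 16.25 to 23.13 FPKM, Fshr 6.14 to 16.3, Col4a1 2.1 to 5.12 and Kitl 1.14 to 2.5. The 5 immune and blood markers summed to 1.73 to 2.45 FPKM in IVM and 2.92 to 21.6 FPKM in IVO. The top of the IVO range came mainly from Lyz2, at 1.04, 1.04 and 15.67 FPKM in the 3 IVO samples. The part of these other cells in the differences below was not tested.

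Differences between the groups were tested with limma on log2(FPKM + 1) for 18818 genes whose FPKM averaged at least 1. A gene counted as called at |log2FC| ≥ 1 with an adjusted p-value (Benjamini-Hochberg, all 18818 genes) under 0.05. The log2FC is IVO minus IVM and makes changes of low genes look smaller than they are. Of the 100 histone genes, 32 were listed at 0 in all 6 samples, 38 had some signal but were under the filter, and 30 were tested, 22 of them replication-dependent and 8 variant. Of the 30, 6 (20%) were called lower in IVO, where 17.9% of all tested genes were. A single one (3.33%) was called higher, where 0.606% of all tested genes were. Among the 13154 tested genes with an Ensembl identifier, as all members have, the background was 14.6% lower and 0.623% higher. Scaling moved the background more than the members' counts. With median-ratio scaling 6 members (20%) were called lower, beside 11.3% of all tested genes, and 1 higher, beside 2.05%. With quantile normalisation 5 (16.7%) were called lower, beside 8.61%, and 3 (10%) higher, beside 5.55%. Over all tested genes the calls were 3366 lower and 114 higher as deposited, 2130 and 385 with median-ratio scaling and 1620 and 1044 with quantile normalisation. Whether the members differ from other genes was not tested. The values of 7 tested members did not overlap between the groups and were lower in IVO, 5 did not overlap and were higher, and 18 overlapped. Over all tested genes, 32.6% did not overlap and were lower, and 9.62% did not overlap and were higher. The median log2FC was -0.30 over the 30, -0.30 over all tested genes and -0.18 over the tested Ensembl genes. Of the 30, H4c8, H2bc13, H2ac23 and H3c8 had a mean under 1 FPKM in IVO, and H2bc3 in IVM, and so passed the filter through the other group.

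The histone FPKM of these libraries was dominated by 3 variant genes. Histone mRNA that ends at its stem-loop is captured only in part, so these shares do not give the make-up of histone mRNA in the oocyte. H1f8, H3f3a and H3f3b together supplied 95% to 96.3% of the FPKM summed over the set in IVM samples and 96.5% to 96.9% in IVO samples. Replication-dependent genes supplied 3.36%, 2.84% and 3.62% in IVM and 1.81%, 1.70% and 1.87% in IVO samples. H1f8 had the highest FPKM of the set in every sample, followed in every sample by both H3.3 genes, whose order changed between the groups. By the mean over the 6 samples H2bc4, H2az1 and H2ac24 came next. Their order changed with the sample, and H2bc4 was above H2az1 in the 3 IVM samples and below it in the 3 IVO samples.

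**Figure D1:**
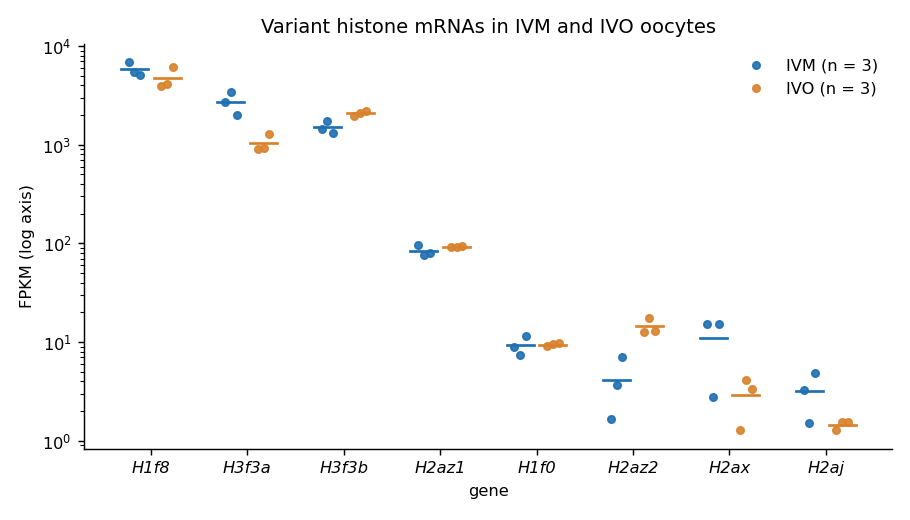
FPKM (log axis) of the 8 tested variant histone genes in the 3 IVM and 3 IVO samples, with points for samples and short lines for the group means. H3f3a lies lower in all IVO samples than in any IVM sample, H3f3b and H2az2 lie higher, and the other 5 genes overlap.

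H1f8 encodes the linker histone of the oocyte, which takes the place of the somatic H1 proteins on maternal chromatin (chr6:115921899-115927197, plus strand). It had 6839.90, 5425.21 and 5117.13 FPKM in IVM oocytes against 3976.83, 4122.23 and 6152.40 FPKM in IVO oocytes. The third IVO sample lay above 2 of the 3 IVM samples, and the groups overlapped. The log2FC of -0.30 (SE 0.21, limma adjusted p = 0.336) was not called and equalled the median of all tested genes. It was 0.02 with median-ratio scaling, so no direction is given. H1f0, the replacement linker histone of resting somatic cells, had 8.91, 7.40 and 11.45 FPKM in IVM and 9.09, 9.44 and 9.71 FPKM in IVO. The IVO values lay inside the IVM range (log2FC 0.04, SE 0.22, limma adjusted p = 0.915).

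H3.3 is the replacement form of H3 that is deposited without DNA synthesis, and H3f3a and H3f3b encode the same protein. H3f3a (chr1:180628051-180642178, minus strand) had 2726.49, 3437.09 and 2003.99 FPKM in IVM samples and 910.35, 920.72 and 1270.92 FPKM in IVO samples. All IVO values were below all IVM values. The mean fell from 2723 ± 717 (SD, n = 3) to 1034 ± 205 FPKM (SD, n = 3), with a log2FC of -1.38 (SE 0.24, limma adjusted p = 0.00795), and the gene was called in each of the 6 fits that left out 1 sample.

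H3f3b (chr11:115912738-115918788, minus strand) had 1436.99, 1747.34 and 1309.02 FPKM in IVM samples and 1935.84, 2074.03 and 2219.78 FPKM in IVO samples. Each IVO sample was above every IVM sample, in the other direction from H3f3a. The log2FC of 0.48 (SE 0.15) did not pass the test (limma adjusted p = 0.0635). With median-ratio, quantile and same-sum scaling it was 0.80, 0.81 and 0.82 (limma adjusted p of 0.0292, 0.00819 and 0.00723). With the length or GC trend removed it was 0.70 and 0.60 (0.0481 and 0.0494), and without IVM 2 it was 0.60 (0.0427). These values missed the fold threshold, and in the remaining settings the p threshold was missed too. The share of H3f3a in the FPKM of both genes was 65.5%, 66.3% and 60.5% in IVM and 32.0%, 30.7% and 36.4% in IVO. In every IVM sample H3f3a was the larger of the pair, and in every IVO sample H3f3b was. Summed over both genes, H3.3 reached 4220 ± 937 FPKM (SD, n = 3) in IVM oocytes against 3111 ± 337 FPKM (SD, n = 3) in IVO oocytes, with overlapping groups. The FPKM total over all genes was also lower in every IVO sample, and a scaled H3.3 sum was not compared.

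Reads can be split between H3f3a and its processed copies. The pseudogene H3f3a-ps2, which is outside the set and was chosen after its values were seen, had 30.58, 32.37 and 24.48 FPKM in IVM and 1.49, 1.79 and 6.24 FPKM in IVO. These values were small beside those of H3f3a in every sample. The antisense transcript H3f3aos lay at 0.02, 0.04 and 1.14 FPKM in IVM and was listed at 0 in the 3 IVO samples. When a replicate block was combined with the removal of the length trend or of the GC trend, the log2FC of H3f3a was -1.16 and -1.28, with limma adjusted p of 0.095 and 0.0598.

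H2A.Z is the variant of H2A found around transcription start sites, and its 2 genes encode nearly the same protein. H2az2 (chr11:6371231-6394481, minus strand) had 1.64, 3.65 and 7.10 FPKM in IVM and 12.66, 17.49 and 13.06 FPKM in IVO. All IVO values were above all IVM values, and the spread of the IVM samples was wide for their level. The mean rose from 4.13 ± 2.76 (SD, n = 3) to 14.4 ± 2.68 FPKM (SD, n = 3), with a log2FC of 1.72 (SE 0.41, limma adjusted p = 0.0232). It was called in 2 of the 6 fits that left out 1 sample. The limma adjusted p was 0.0546 without IVM 1, 0.0757 without IVM 2, 0.0511 without IVO 1 and 0.0715 without IVO 2, and with no filter on low values it was 0.0585.

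H2az1 was the larger of the H2A.Z pair in every sample, with 95.22, 75.62 and 80.47 FPKM in IVM and 92.11, 92.51 and 93.54 FPKM in IVO. The groups overlapped (log2FC 0.15, SE 0.17, limma adjusted p = 0.566). The share of H2az2 in the FPKM of both was 1.69%, 4.60% and 8.11% in IVM and 12.1%, 15.9% and 12.3% in IVO, and the groups did not overlap.

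**Figure D2:**
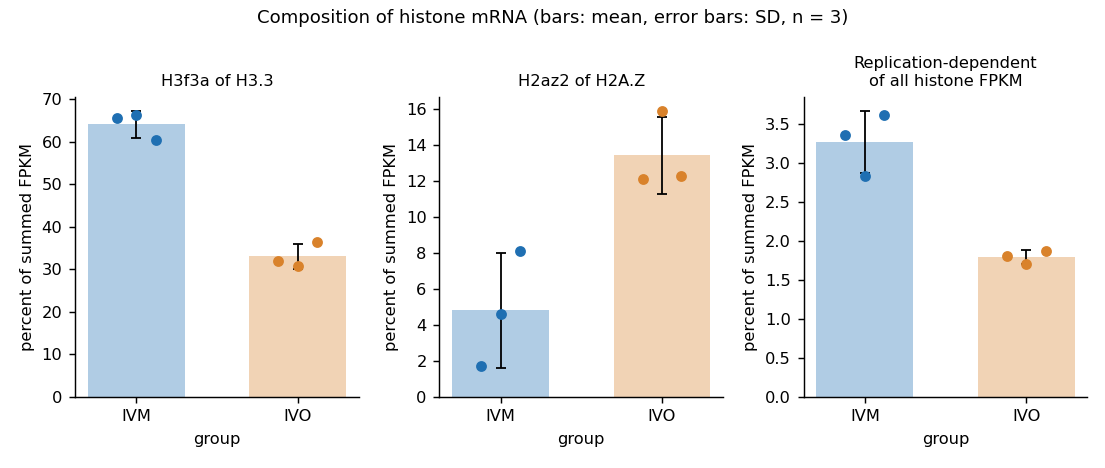
Shares of summed FPKM (percent) in IVM and IVO oocytes, for H3f3a among both H3.3 genes, H2az2 among both H2A.Z genes and replication-dependent genes among all histone genes. Points are samples, bars are means and error bars are SD (n = 3), and the points of the groups do not overlap in any of the 3 panels. Replication-dependent mRNAs without a poly(A) tail are captured only in part.

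H2A.X is phosphorylated at DNA breaks, and its gene H2ax can end either at a stem-loop or at a poly(A) tail. H2ax had 15.21, 2.80 and 15.29 FPKM in IVM and 1.27, 4.12 and 3.34 FPKM in IVO samples. The second IVM sample lay among the IVO samples, so the groups overlapped. The log2FC was -1.44 (SE 0.61, limma adjusted p = 0.137). Without that sample it was -2.14 (limma adjusted p = 0.0270) and the gene was called. H2aj, which encodes the mammalian variant H2A.J, had 3.27, 1.5 and 4.85 FPKM in IVM and 1.28, 1.53 and 1.55 FPKM in IVO. The second IVM sample was again the lowest of its group. The log2FC of -0.70 (SE 0.34, limma adjusted p = 0.189) was not called, and without the second IVM sample it was -1.03 (limma adjusted p = 0.0473).

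The remaining variants were under the filter. All 18 H2al genes, H2bl1 and H1f9 were listed at 0 in every sample. These are genes of the male germ line. H1f7 reached 0.05 FPKM in a single IVO sample, H3f4 at most 0.50 FPKM, and H1f10, a somatic linker histone, at most 1.21 FPKM. The processed pseudogene H3f3c had 0.53, 1.79 and 2.63 FPKM in IVM and at most 0.68 FPKM in IVO.

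Among the 22 tested replication-dependent genes, 5 (22.7%) were called lower in IVO and none was called higher with limma on the deposited values, beside 17.9% and 0.606% of all tested genes. Their log2FC was negative for 14 and positive for 8, with a median of -0.34. At an unadjusted limma p under 0.05 there were 7 lower, with H2ac1 and H2ac23 as the further ones, and 0 higher, and these 2 were the only such genes of the H2A and H1 families and of the chromosome 3 cluster together. By family the genes called lower were 3 of 7 for H2B, 1 of 5 for H3 and 1 of 5 for H4, with none of 4 for H2A and none of 1 for H1. The 5 called genes, H2bc4, H3c4, H4c8, H2bc12 and H2bc13, lie among the 17 tested genes of the chromosome 13 clusters. Of these 5, H4c8 and H2bc13 passed the filter through their IVM values. None of the 4 tested genes of the chromosome 3 cluster was called, and the values of 2 of them, H2ac18 and H3c13, were higher in all IVO samples than in any IVM sample. Whether the clusters differ was not tested.

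H2bc4 encodes a canonical H2B and was the highest replication-dependent mRNA of every IVM sample (chr13:23867631-23878163, plus strand). Its FPKM was 191.74, 160.46 and 128.58 in IVM and 22.21, 17.29 and 24.25 in IVO. The groups lay far apart and did not overlap. The mean fell from 160 ± 31.6 (SD, n = 3) to 21.2 ± 3.58 FPKM (SD, n = 3), with a log2FC of -2.85 (SE 0.23, limma adjusted p = 9.05e-04). Every alternative kept the call, including the 6 fits without 1 sample. The share of H2bc4 in the replication-dependent sum was 49.5%, 51.3% and 40.0% in IVM and 17.3%, 13.8% and 13.1% in IVO.

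The sum over the replication-dependent genes turned on H2bc4. It was 387, 313 and 322 FPKM in IVM and 128, 125 and 186 FPKM in IVO, a ratio of 0.43 between the means, and the groups did not overlap. This ratio was not corrected for the lower FPKM total of the IVO samples. Without H2bc4 the sum was 196, 152 and 193 FPKM in IVM and 106, 108 and 162 FPKM in IVO, and the groups overlapped. The annotated H2bc4 gene continues 9518 bases along the genome past its stem-loop, whereas the length listed with its FPKM is 1156 bases. It overlaps H2ac6 on the opposite strand and Gm55646 on the same strand. Coding sequences of 7 other members were at least 98% identical to it, the nearest being H2bc11 at 98.9%, so part of the H2B signal could be shifted among them.

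H3c4 encodes a canonical H3 (chr13:23759937-23761855, plus strand). It had 21.46, 15.56 and 8.74 FPKM in IVM and 1.66, 0.11 and 2.40 FPKM in IVO. Each IVO sample was below every IVM sample, and the second IVO value corresponds to about 2 fragments. The log2FC was -2.83 (SE 0.49, limma adjusted p = 0.00801), and each of the 6 fits without 1 sample called it. The annotated gene continues 1422 bases along the genome past the stem-loop, and H3c2 is 98.8% identical in its coding sequence.

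H4c8 encodes histone H4 (chr13:23715220-23715689, plus strand). It had 9.37, 5.91 and 5.98 FPKM in IVM and 0.79, 0.80 and 0.57 FPKM in IVO. The groups did not overlap, and the IVO values correspond to 2.3 to 3.2 fragments each, about the level of 3 fragments (0.748 to 0.798 FPKM). Over the 3 samples of a group there were 100 fragments in IVM and 8 in IVO, a ratio of 0.0988 per effective length and depth (exact 95% interval 0.0415 to 0.202, counting error only). The log2FC was -2.21 (SE 0.25, limma adjusted p = 0.00213), and it was -1.30 on fragments without length normalisation. With the length trend removed it was -1.44 and called (limma adjusted p = 0.0141), and with the replicate block as well it was not called (0.0529). H4c8 had a mean of 0.72 FPKM in IVO and passed the filter through its IVM values.

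H2bc12 and H2bc13 encode canonical H2B proteins and were low. H2bc12 (chr13:22220040-22220515, plus strand) had 13.02, 17.13 and 14.93 FPKM in IVM and 6.13, 2.67 and 6.52 FPKM in IVO. H2bc13 (chr13:21899933-21900313, minus strand) had 2.66, 5.47 and 1.0 FPKM in IVM and was listed at 0 in the 3 IVO samples, where 3 fragments would give 1.25 to 1.40 FPKM. For neither gene did the groups overlap. The log2FC of H2bc12 was -1.45 (SE 0.32, limma adjusted p = 0.0174). No fold change is given for H2bc13, which was called with a limma adjusted p of 0.0228 on 29 fragments over the 3 IVM samples. It entered the test through its IVM values alone.

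Both calls were the least stable of the 5. H2bc12 was not called without IVM 1, IVM 2 or IVM 3 (limma adjusted p of 0.0532, 0.0652 and 0.0590), and H2bc13 was not called without IVM 1, IVO 1, IVO 2 or IVO 3 (0.0675, 0.0560, 0.0586 and 0.0526). With the trend with gene length removed neither was called (limma adjusted p of 0.14 and 0.138). The number of replication-dependent genes called lower was then 3, and it was also 3 without IVM 1. H2bc12 and H2bc13 are 98.1% and 98.4% identical to their nearest relatives in coding sequence, H2bc4 among them.

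**Figure D3:**
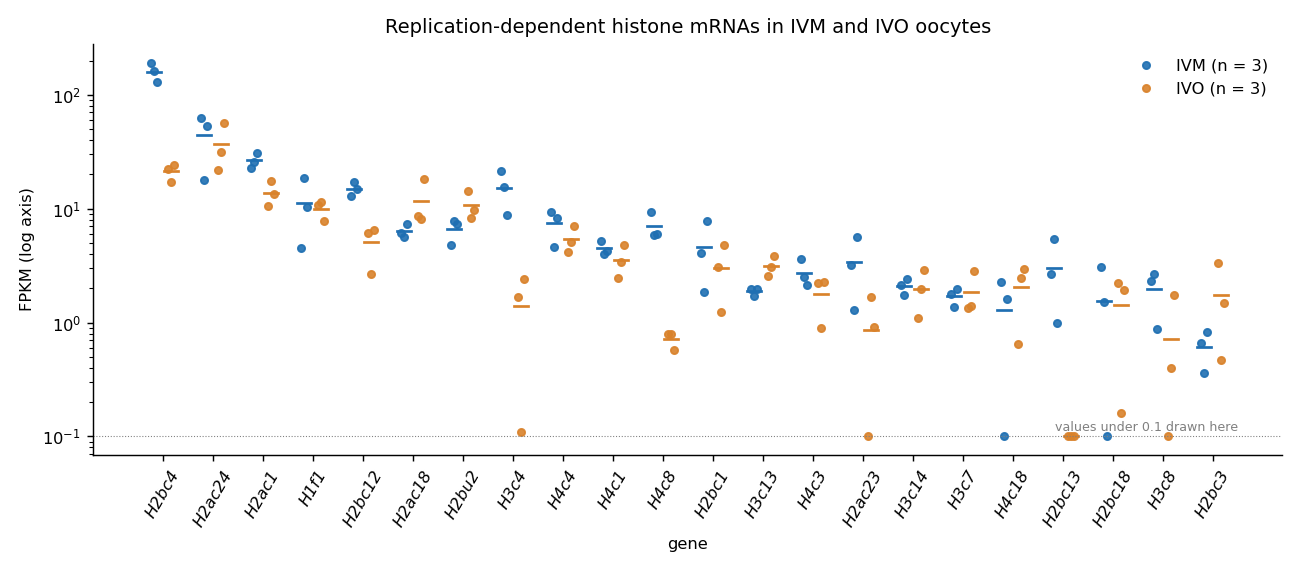
FPKM (log axis) of the 22 tested replication-dependent histone genes, ordered by mean, in the 3 IVM and 3 IVO samples; points are samples, short lines are group means, and values under 0.1 are drawn at 0.1. H2bc4, H3c4, H4c8, H2bc12, H2bc13 and H2ac1 have all IVO samples below all IVM samples, and H2ac18, H2bu2 and H3c13 the reverse.

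H2ac1 and H2bc1 are divergent neighbours on chromosome 13 that encode TH2A and TH2B, canonical-class histones found in testis and oocyte. H2ac1 (chr13:24118445-24118834, plus strand) had 22.92, 25.82 and 31.05 FPKM in IVM and 10.51, 17.36 and 13.40 FPKM in IVO. All IVO values were below all IVM values. The log2FC of -0.92 (SE 0.24, limma adjusted p = 0.0329) passed the p threshold and missed the fold threshold. Without IVO 2 it was -1.09 (limma adjusted p = 0.0383) and the gene was called, and with the trend with gene length removed it was -0.04. H2bc1 was lower in level, with 4.06, 1.86 and 7.83 FPKM in IVM and 3.07, 1.23 and 4.78 FPKM in IVO, and its groups overlapped (log2FC -0.43, SE 0.50, limma adjusted p = 0.583).

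The other replication-dependent H2A and H1 genes among the highest were not called. H2ac24 had 63.09, 17.70 and 53.31 FPKM in IVM and 21.97, 31.49 and 56.54 FPKM in IVO, so the spread within each group exceeded the difference between the means (log2FC -0.20, SE 0.53, limma adjusted p = 0.821). Its coding sequence is identical to that of H2ac23, and 8 members were at least 98% identical to it. H1f1, a somatic linker histone, had 4.49, 18.66 and 10.45 FPKM in IVM and 10.78, 11.47 and 7.72 FPKM in IVO (log2FC 0.02, SE 0.45, limma adjusted p = 0.984). The first and the second IVM sample lay outside the IVO range on either side. H2ac18 had 6.12, 5.62 and 7.27 FPKM in IVM and 8.66, 8.18 and 18.39 FPKM in IVO. Each IVO sample was above every IVM sample, though the log2FC of 0.71 did not pass the test (limma adjusted p = 0.156). It was called higher with quantile normalisation (1.19, limma adjusted p = 0.0349), with the length trend removed (1.32, 0.0355) and with the GC trend removed (1.3, 0.0270). Its coding sequence is identical to that of H2ac19.

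By family, the summed replication-dependent FPKM of H2B was 221, 196 and 163 in IVM and 52.5, 30.5 and 52.5 in IVO. That of H3 was 31.8, 24.4 and 19.7 in IVM and 7.36, 8.40 and 14.1 in IVO, and that of H4 was 32.1, 20.6 and 25.5 in IVM and 14.6, 13.0 and 19.5 in IVO. For these 3 families the IVO sums lay below the IVM sums in all samples, on FPKM as deposited. The H4 gap was narrow, with 20.6 in IVM 2 and 19.5 in IVO 3. The FPKM total over all genes was also higher in every IVM sample, and scaled family sums were not compared. In each family this separation depended on a called gene. Without H2bc4 the H2B sums of the groups overlapped, as did the H3 sums without H3c4 and the H4 sums without H4c8. The H2A sums (51.9 to 101 FPKM in IVM, 41.4 to 91.2 FPKM in IVO) and the H1 sums (6.18 to 19.9 FPKM in IVM, 8.49 to 12.7 FPKM in IVO) overlapped. The 33 replication-dependent genes with signal under the filter had means of 0.00833 to 0.982 FPKM, with a median of 0.13, and the highest single value was 3.57 FPKM for H4c12.

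Called genes were found whether or not the annotated gene ran on past its stem-loop. Of the 12 tested genes whose model ended within 100 bases of the stem-loop or before its end, 3 (25.0%) were called lower. Of the 8 whose model ran on for over 100 bases, 2 (25.0%) were, beside 17.9% of all tested genes. Among the first 3, H4c8 and H2bc13 had passed the filter only through their IVM values, so no likeness of these shares is read from them. The median log2FC was -0.31 and -0.23. H2bc4 and H3c4 ran on furthest along the genome past the stem-loop, whereas H4c8 and H2bc12 ended 46 and 30 bases after it. The model of H2bc13 stopped 45 bases before the end of the stem-loop. Neither of the 2 tested genes without a match was called or had an unadjusted limma p under 0.05.

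**Figure D4:**
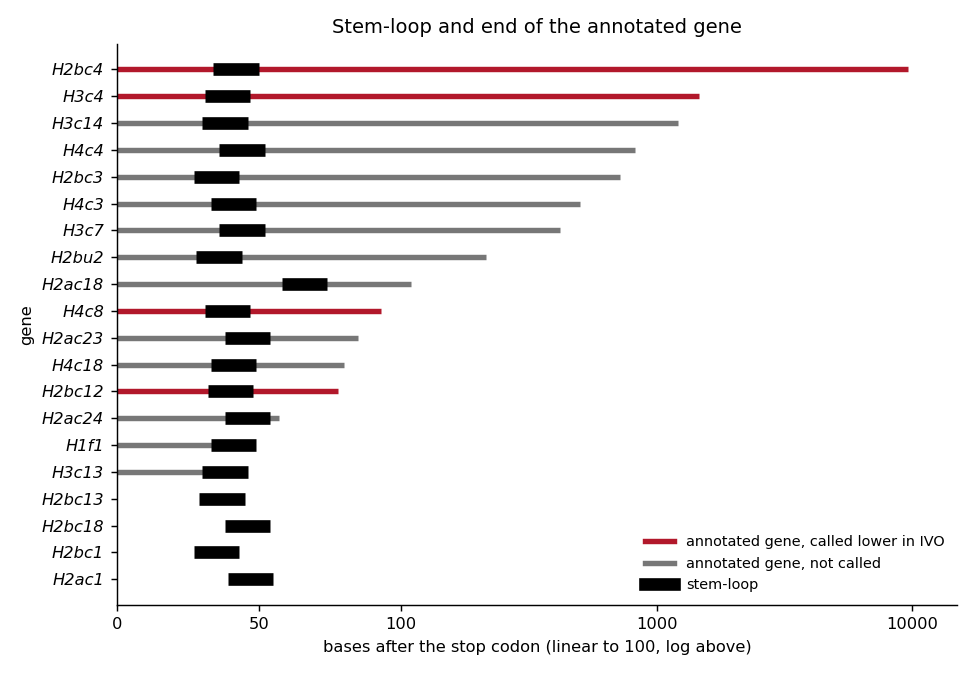
Position of the stem-loop (black) and end of the annotated gene (line) in bases of genome after the stop codon. Shown are the 20 tested replication-dependent genes with a stem-loop, on an axis that is linear to 100 and logarithmic above. The genes called lower in IVO (red) include H2bc4, with 9518 bases past the stem-loop, and H2bc13, whose model ends at the coding sequence and so shows no line, as do H2bc18, H2bc1 and H2ac1.

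The direction of small differences depended on scaling. Median-ratio scaling moved the median of all tested genes from -0.30 to -0.04, and quantile normalisation moved it to 0.15. The median of the 22 replication-dependent genes went from -0.34 to -0.07 and 0.14, and that of the 8 variant genes from -0.13 to 0.17 and 0.18. With the length trend removed the replication-dependent median was 0.21 beside 0.07 for all tested genes, and over Ensembl genes only it was -0.34 beside -0.18. Without IVM 2 it was -0.56 beside -0.32, without IVO 3 -0.55 beside -0.27, and without IVO 2 -0.17 beside -0.29. H2bc4, H3c4, H4c8, H2bc13 and H3f3a were called lower and H2az2 was called higher under both scalings, whereas H2bc12 was not called with quantile normalisation (log2FC -0.96, limma adjusted p = 0.0623). H2ac18 and H2bu2 were called higher with quantile normalisation and not with median-ratio scaling (log2FC 1.19 and 1.12).

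**Figure D5:**
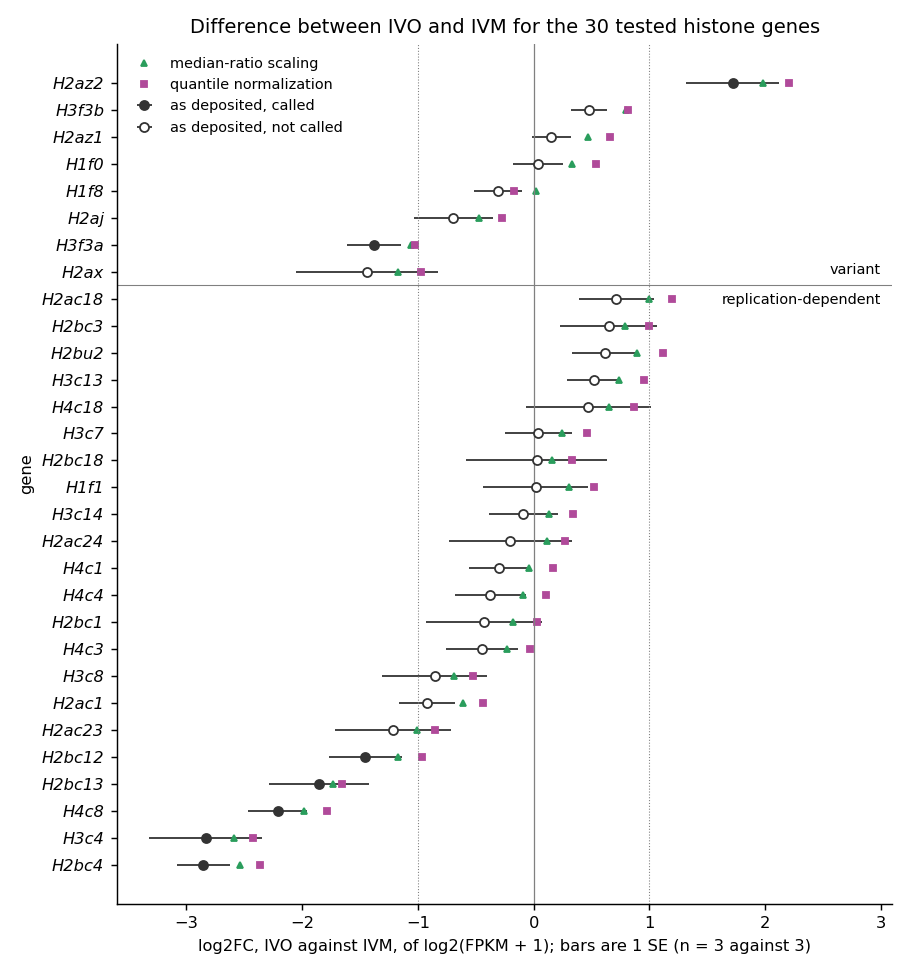
log2FC (IVO minus IVM, of log2(FPKM + 1)) of the 30 tested histone genes; circles are the deposited values with 1 SE (n = 3 against 3), filled where called, triangles are median-ratio scaling and squares quantile normalisation, and dotted lines mark the fold threshold of 1. Of the 7 called genes, H2bc4 has the most negative value (-2.85) and H2az2 the only positive one (1.72); the plotted value of H2bc13, listed at 0 in all IVO samples, depends on the pseudocount.

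Genes that make histone mRNA or carry histone protein were taken as 2 lists. Of 23 genes for the synthesis and processing of histone mRNA, 20 were tested, 2 were called lower and none higher with limma (3 and 1 at an unadjusted p under 0.05), so 10% were called lower beside 17.9% of all tested genes, and the median log2FC was -0.01. Lsm10, a subunit of the U7 particle that cuts histone pre-mRNA, had 131.94, 92.07 and 90.48 FPKM in IVM and 14.73, 8.98 and 10.21 FPKM in IVO (log2FC -3.11, SE 0.26, limma adjusted p = 9.79e-04). Tut4, a terminal uridylyltransferase, had 223.44, 229.94 and 128.88 FPKM in IVM and 42.38, 56.14 and 97.67 FPKM in IVO (log2FC -1.59, SE 0.36, limma adjusted p = 0.0201). For both genes all IVO samples were below all IVM samples. Tut4 was not called without IVM 1, IVM 2, IVO 1 or IVO 2 (limma adjusted p of 0.0783, 0.0768, 0.0542 and 0.0595), so the list then held 1 call.

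Slbp encodes the protein that binds the stem-loop and was the most abundant of these mRNAs in level named here. It had 1729.21, 1630.22 and 1177.05 FPKM in IVM and 2516.26, 2362.24 and 2686.14 FPKM in IVO. All IVO values were above all IVM values. The log2FC of 0.76 (SE 0.18, limma adjusted p = 0.0232) passed the p threshold and missed the fold threshold.

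Of 35 histone chaperones and their partners, 33 were tested, 4 were called lower and none higher with limma (6 and 2 at an unadjusted p under 0.05), so 12.1% were called lower beside 17.9% of all tested genes, and the median log2FC was -0.08. Mis18a, which prepares centromeres for the H3 variant CENP-A, had 247.31, 235.71 and 178.46 FPKM in IVM and 6.75, 9.36 and 10.62 FPKM in IVO (log2FC -4.49, SE 0.23, limma adjusted p = 5.30e-04). Rbbp4, a subunit of CAF-1 and other chromatin complexes, had 148.62, 147.34 and 154.93 FPKM in IVM and 51.53, 59.92 and 62.09 FPKM in IVO (log2FC -1.37, SE 0.16, limma adjusted p = 0.00249). Both were called in all 6 fits without 1 sample, and their groups lay far apart.

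Chaf1b, a further CAF-1 subunit, had a mean of 4.83 ± 1.35 FPKM (SD, n = 3) in IVM and 1.26 ± 0.509 FPKM (SD, n = 3) in IVO, with a log2FC of -1.36 (limma adjusted p = 0.0172). It was not called without IVM 1 or IVM 3 (0.0605 and 0.0541). Ubn2, of the complex that deposits H3.3, had a mean of 639 ± 81.3 FPKM (SD, n = 3) in IVM and 303 ± 31.0 FPKM (SD, n = 3) in IVO, with a log2FC of -1.07 (limma adjusted p = 0.00588). Its log2FC was -0.97 without IVM 2 and -0.98 without IVO 1, under the fold threshold. Hira, the centre of the same complex, was under the filter, with 0.23 to 0.94 FPKM in the 6 samples. Npm2, the oocyte nucleoplasmin, had 992.38 to 1118.64 FPKM in IVM and 1010.04 to 1039.41 FPKM in IVO, and the groups overlapped (log2FC -0.02, SE 0.13, limma adjusted p = 0.935).

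The 9 histone relatives looked at lay outside the symbol rule, and none of the 4 that were tested was called with limma or had an unadjusted p under 0.05 (0 of 4). Cenpa, the H3 variant of centromeres, had a mean of 101 ± 23.9 FPKM (SD, n = 3) in IVM and 101 ± 10.4 FPKM (SD, n = 3) in IVO (log2FC 0.02, SE 0.22, limma adjusted p = 0.967). Macroh2a1 had 4.86 to 8.17 FPKM in IVM and 6.56 to 7.20 FPKM in IVO, and its groups overlapped. Macroh2a2 was at 0.77, 9.31 and 0.69 FPKM in IVM and at 0.03, 0.09 and 0.09 FPKM in IVO, so its IVM mean rested on the second sample (limma adjusted p = 0.147). H2bw2 had 2.13 to 2.67 FPKM in IVM and 0.68 to 1.71 FPKM in IVO (limma adjusted p = 0.145).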

How the data were processed

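Full-length cDNA of 6 pools of MII oocytes was made by the authors with the SMART-Seq v4 kit and sequenced as paired-end Nextera XT libraries. The authors aligned the reads to GRCm39 with HISAT2 2.1.0, estimated gene abundance with RSEM 1.3.3 and deposited FPKM per gene and sample, with no counts. The replicates were described as biological, and the replicate numbers came from the sample titles. DESeq2 1.24.0, used by the authors on counts, was not run here.

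Differential expression was tested on the deposited FPKM in R 4.3.3 with limma 3.58.1 (lmFit, eBayes with trend), with a pseudocount of 1, a minimum mean FPKM of 1 and the group alone in the model. P-values are two-sided and adjusted by Benjamini-Hochberg over 18818 genes, which include loci without gene names. With 3 samples a group, exact permutation cannot reach a p under 0.1. The fit was tested on simulated data. Depth was inferred from 13829 genes with 1 transcript, and intervals and floors cover counting error only.

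Stem-loops were searched in the GRCm39 genome from annotated stop codons. Identity is the share of equal bases between coding sequences of equal length. Promoters and proteins were not used here. Alternatives were other scalings, filters, pseudocounts, variance trends, a replicate block, length or GC trends removed by lowess (span 0.3), Ensembl genes only, fragments without length normalisation, and each sample left out. Named were all tested variants, all called replication-dependent genes, the 6 tested replication-dependent genes with the highest mean FPKM, and up to 4 called genes of each list, with Slbp, Hira and Npm2. Other genes were named after their values were seen. The members and the lists were chosen with earlier results of these data known. Other steps ran in Python 3.11.15 (numpy 2.4.6, pandas 2.3.3).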

Additional observations from a re-analysis of the deposited data

How the results depend on the processing

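Among all tested genes, 3480 were called. The number was 2077 with the length trend removed (889 with the replicate block as well), 2056 over Ensembl genes only, and 1492 over these with the GC trend removed (1086 with the replicate block as well). Of the histone genes, 6 were called lower, against 1 when the replicate block was joined to the removal of the length trend, and 3 with the GC trend removed and the block. The 1 called higher became 0 with no filter, 3 with quantile normalisation, 4 with either the length or the GC trend removed, and 0 to 1 without single samples (0 without IVM 1, IVM 2, IVO 1 or IVO 2). The 5 replication-dependent genes called lower became 3 with a mean FPKM of at least 5, 3 with the length trend removed (1 with the block), 3 with the GC trend removed, with or without the block, and 3 to 5 without single samples. The processing list went from 2 calls to 1 with the replicate block, with the length trend removed with or without the block, and with the GC trend removed and the block, and to 1 or 2 without single samples. It went to 3 with samples scaled to the same sum, with the GC trend removed without the block, and on fragments without length normalisation. The chaperone list went from 4 to 2 with the length trend removed and the block. The cause of these shifts was not tested, except that fewer genes were tested with a higher minimum or with Ensembl genes only.

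The sign turned for genes without a call. The log2FC of H1f8 was 0.02 with median-ratio scaling, 0.03 with samples scaled to the same sum and 0.15 with the GC trend removed, with or without the block. That of H2ac24 was 0.11, 0.27 and 0.13 with median-ratio, quantile and same-sum scaling, 0.55 with the length trend and 0.39 with the GC trend removed, both with or without the block. That of H1f1 was -0.11 on fragments without length normalisation. Without single samples it was -0.09 to 0.19 for H1f0, -0.47 to 0.45 for H1f1 and -0.75 to 0.14 for H2ac24.

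Samples with the same replicate number did not deviate together (r of -0.062, -0.018 and -0.107 across genes), so the numbers were not taken to pair the samples. The replicate block alone left 2991 genes called, with 6 histone genes called lower, 5 of them replication-dependent. FPKM of short or low genes rests on few fragments, and the histone genes at 0 or under the filter were not tested.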
